A study of Mus musculus with 9 samples.

Results

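The 47 genes described here drive or mark the cell cycle and DNA replication, out of 55487 gene rows in the deposited tables. They were chosen by symbol and fall into 16 regulators of the G1 phase, 21 genes of DNA replication and 10 genes of mitosis, and all 47 symbols were found. Their messenger RNA was measured in naive CD4+ T cells (TN cells, helper T cells that have not met antigen) from lymph nodes of WT C57BL6/J mice, whose age is not stated in the labels. Of the 9 libraries, 3 came from freshly prepared cells with no treatment ("fresh"), 3 from cells cultured for 20 h without IL-1b ("cultured") and 3 from cells kept 20 h in culture with 10 ng/mL of recombinant IL-1b, an inflammatory cytokine (the "IL-1b-treated" group). The design asks what culture alone changed and what IL-1b changed beyond it.

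A naive T cell rests outside the cell cycle until its receptor is engaged. Cyclins D2 and D3 then bind the kinases Cdk4 and Cdk6 and phosphorylate Rb1, Rbl1 and Rbl2, the pocket proteins that hold E2F transcription factors in check, while Cdkn1b (p27Kip1), Cdkn2c (p18) and Cdkn2d (p19) inhibit the kinases. Free E2F switches on cyclin E and the replication genes, which load the MCM helicase on DNA, unwind it and copy it; cyclin A and B with Cdk1 then carry the cell through mitosis.

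Library totals ranged from 13518818 to 23056660 expected counts, the fractional read counts that RSEM assigns to genes. Levels below are TPM (transcript abundance corrected for length and library size), with ± as the SD over n = 3 libraries. Differences are log2 fold changes of TMM-scaled counts with ± as the SE. Each was tested with edgeR (quasi-likelihood), the p-values were adjusted by Benjamini-Hochberg over 13043 genes, and a gene is called where the adjusted p is under 0.05. The scaling sets the typical gene near 0. On a log2(TPM + 1) scale the median of all tested genes stood at -0.19 for cultured against fresh and -0.25 for IL-1b-treated against cultured cells, so a level in TPM can be lower while the scaled difference is near 0. The median effective length behind a count fell with the groups, from 2359 to 2380 bases in fresh libraries to 2100 to 2136 in cultured and 1781 to 1794 in IL-1b-treated ones, and values from a fit with the trend on GC and gene length taken out (the GC and length correction) are given where they end a call of a member. All 15 markers of naive CD4 T cells were detected in every group, with a summed level of 10728 to 10869 TPM in fresh, 8622 to 8825 in cultured and 7953 to 8285 in IL-1b-treated libraries. Marker lists of other cells differed between the groups. The 12 B cell markers summed to 61.3 to 79.9 TPM in fresh, 4.74 to 6.61 in cultured and 4.79 to 7.42 in IL-1b-treated libraries, the 10 neutrophil markers to 16.9 to 46.7, 0.42 to 0.69 and 0 to 2.33 TPM, and the 14 memory and effector T cell markers to 61.2 to 72.5, 21.3 to 23.8 and 15.3 to 18.5 TPM. S100a8, Mpo, Retnlg, Camp and Ltf had 0 counts in the libraries cultured without IL-1b, and Elane, Mpo, Cxcr2, Retnlg and Camp in those with it. The NK and innate lymphoid markers summed to 6.65 to 8.93, 3.39 to 4.53 and 2.29 to 3.11 TPM in the same group order. The erythroid markers summed to 7.93 to 36.1, 0.78 to 4.09 and 0.35 to 1.84 TPM. The summed level of the 10 regulatory T cell markers went the other way, at 90.3 to 101, 407 to 431 and 374 to 417 TPM. Single markers were split, with 6 of 9 tested called higher and 3 lower in cultured against fresh cells. Their defining factor Foxp3 was at 1.27, 1.81 and 1.16 TPM on average. The CD8 markers summed to 23.8 to 25.6, 41.2 to 50.1 and 37.9 to 42.4 TPM. The myeloid and dendritic markers summed to 69.1 to 82.6, 84.0 to 89.5 and 91.6 to 101 TPM. Of 7 tested, 5 were called lower and 1 higher in cultured against fresh cells. Mean sums were 73.0, 83.6 and 69.5 TPM for immature thymocyte markers and 158, 180 and 145 for stromal and endothelial markers. They were 37.0, 49.8 and 44.8 TPM for plasma and germinal centre B cell markers. Few genes carried these sums. A mean of at least 1 TPM was reached by 1 of the 8 stromal and endothelial markers in each group. Of the 5 thymocyte markers 2, 3 and 3 reached it in the 3 groups, and of the 9 plasma and germinal centre markers 5, 4 and 3. The part of these cells in the differences from fresh cells was not tested, and in bulk RNA fewer cells of a type and less RNA per cell cannot be told apart. The labels do not say that replicates came from separate animals or cultures, so the p-values may measure technical spread only.

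Levels differed by role. Mean levels reached 5 TPM or more in some group for 13 of 16 G1 regulators, 13 of 21 replication genes and 0 of 10 mitosis genes. The G1 regulators summed to 991 ± 58.0 TPM in fresh, 895 ± 11.7 in cultured and 722 ± 38.2 in IL-1b-treated cells. The replication genes summed to 446 ± 5.46, 466 ± 19.4 and 468 ± 8.60 TPM, and the mitosis genes to 12.5 ± 1.51, 13.2 ± 0.54 and 9.90 ± 0.36 TPM. As counts scaled to the library total only (CPM), the G1 sum was higher in cultured than in fresh cells. It was 1657 to 1678 CPM in fresh, 1785 to 1818 in cultured and 1572 to 1606 in IL-1b-treated libraries. The replication genes held 586 to 595, 628 to 667 and 700 to 716 CPM, with no overlap. Pcna held 5644, 8051 and 11745 of their counts in the 3 groups, and 29.4%, 38.4% and 46.4% of their summed TPM on average. Mcm2 to Mcm7 went the other way in TPM, with mean sums of 216, 207 and 185. The sums without Pcna were not taken. The mitosis genes held 18.6 to 25.0, 23.3 to 25.9 and 20.0 to 20.7 CPM. Ccnd3, Ccnd2, Cdkn1b and Cdk4 led the G1 regulators, Pcna and Mcm7 led the replication genes, and Top2a, the topoisomerase that untangles chromosomes, led the mitosis genes. Among the 43 members that passed the filter on low counts, the highest mean TPM was in fresh cells for 25, in cultured cells for 15 and in IL-1b-treated cells for 3. Mcm10, Orc1, Aurkb and Bub1 did not pass. The order of groups is on the TPM scale, on which 56.4% of all tested genes had every IL-1b-treated value below the fresh ones. It was not counted over all tested genes, and on scaled counts some members had their highest mean in another group.

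**Figure D1:**
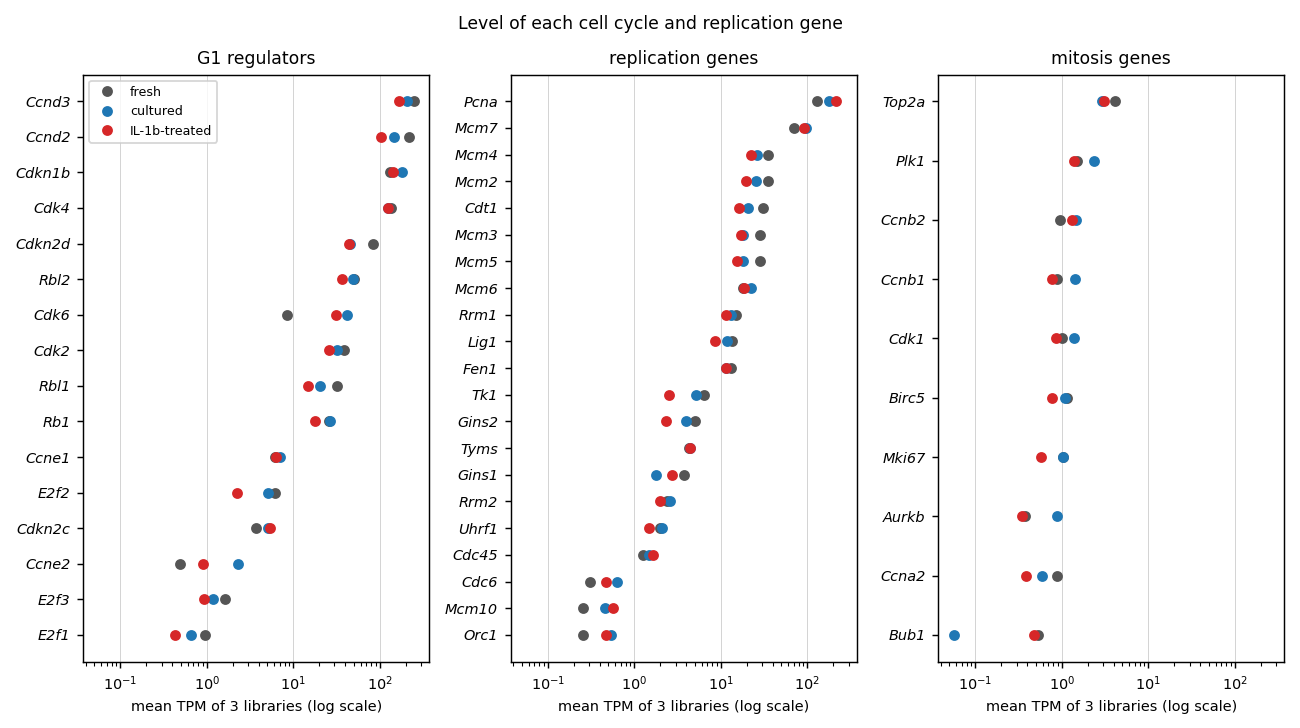
Mean TPM of 3 libraries (log axis) for each of the 47 genes in fresh, cultured and IL-1b-treated cells, in 3 panels by role. Ccnd2, Ccnd3, Cdk4, Cdkn1b and Pcna have means over 100 TPM in every group, whereas all 10 mitosis genes lie under 5 TPM in every group.

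Culture for 20 h changed single G1 regulators and replication genes, in both directions. Of the 43 tested members 9 rose and 9 fell against fresh cells, 41.9% in all, where 58.2% of all tested genes were called, 29.4% higher and 28.9% lower. On log2(TPM + 1) values 5 were higher and 10 lower, and after the GC and length correction 9 and 5. Cdk6, cyclin E2 (Ccne2), Cdkn1b, Pcna, Mcm6, Mcm7 and Plk1 rose by at least 1.5-fold, and Cdkn2d and E2f2 fell by at least 1.5-fold; 27.2% of all tested genes were called at that size. The remaining calls were smaller. In TPM, all cultured libraries lay above all fresh ones for 7 tested members (17.3% of all tested genes) and below them for 14 (43.1%), so 21 did not overlap where 60.4% of all tested genes did not. The median log2 fold change was -0.01 for the G1 regulators, -0.09 for the replication genes and 0.46 for the mitosis genes, against 0.00 for all tested genes. The value for mitosis genes rests on 8 tested genes of low level, of which 1 was called, and was 0.32 after the GC and length correction.

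Among the kinases and their cyclins, Cdk6 had the largest fold change. It lies on chromosome 5 (mm10 assembly, chr5:3341485-3531008, plus strand). It had 415, 328 and 315 expected counts in the fresh libraries and 3740, 4079 and 3851 in the cultured ones. The groups were far apart, and Cdk6 rose 12.7-fold (log2 fold change 3.67 ± 0.060, adjusted p = 1.34e-22). In TPM it stood at 3.42, 13.8 and 7.87 in fresh, 43.7, 39.2 and 42.3 in cultured and 26.8, 32.8 and 33.5 in IL-1b-treated libraries. The fresh TPM values scatter, and RSEM gave Cdk6 effective lengths of 7792, 2195 and 4366 bases there, against 7385 to 8572 in cultured libraries, and with these lengths as an offset the fold was 6.69. Cdk4, its partner gene, was at 139, 149 and 121 TPM in fresh and 117, 129 and 127 TPM in cultured libraries, which overlap. Its log2 fold change of 0.15 ± 0.062 (adjusted p = 0.0471) was lost on leaving out any of fresh replicates 1 and 3 or cultured replicates 1, 2 and 3, with adjusted p up to 0.15, and was -0.13 on log2(TPM + 1) values. Cdk6 made up 5.68% ± 3.08 of the summed TPM of Cdk4 and Cdk6 in fresh cells and 25.2% ± 1.97 in cultured cells.

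Ccnd2 (chr6:127125162-127152193, minus strand) encodes cyclin D2. It was at 193, 252 and 213 TPM in fresh and 148, 145 and 144 TPM in cultured libraries, with no overlap, and fell by 0.43 ± 0.029 on the log2 scale (adjusted p = 1.48e-11). Ccnd3, encoding cyclin D3, was at 253, 252 and 234 TPM in fresh and 207, 192 and 214 TPM in cultured libraries. Every cultured TPM value of Ccnd3 was below every fresh one, yet its scaled difference was -0.02 ± 0.037 (adjusted p = 0.733) and turned to 0.16, called, after the GC and length correction. Of the E-type cyclins, which act with Cdk2 at the entry to S phase, Ccne2 had 23, 11 and 3 expected counts in fresh and 43, 51 and 42 in cultured libraries. All cultured libraries were above the fresh ones, a rise of 4.45-fold (log2 fold change 2.15 ± 0.46, adjusted p = 0.000374). Ccne2 shares 17.4% of its exon bases with Ints8 on the opposite strand, which had 2344 counts over the fresh libraries, and the strand setting of the counting is not given in the sources used here, so reads of the pair may be mixed. Ccne1 (0.37 ± 0.24, adjusted p = 0.202) and Cdk2 (-0.06 ± 0.075, adjusted p = 0.508) were not called.

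Of the kinase inhibitors 1 rose and 1 fell in edgeR. Cdkn1b (chr6:134920401-134925513, plus strand) was at 130, 131 and 129 TPM in fresh and 185, 181 and 184 TPM in cultured libraries. It rose 1.70-fold (log2 fold change 0.77 ± 0.032, adjusted p = 2.15e-15). Cdkn2d, an inhibitor specific to Cdk4 and Cdk6, was at 83.2, 85.2 and 85.3 TPM in fresh and 44.5, 45.8 and 46.3 TPM in cultured libraries, and fell by 0.67 ± 0.076 on the log2 scale (adjusted p = 9.06e-08). Neither pair of groups overlapped. Cdkn1b thus made up 59.6% ± 0.63 of the summed TPM of the 3 inhibitors in fresh and 78.3% ± 0.14 in cultured cells. Cdkn2c, at 3.69 ± 1.87 and 5.12 ± 1.02 TPM, was not called in edgeR (0.70 ± 0.30, adjusted p = 0.0537) but was called higher in DESeq2 (adjusted p = 0.0411) and limma-voom (adjusted p = 0.0425), and in edgeR without fresh replicate 2, cultured replicate 2 or IL-1b-treated replicate 1 (0.00766 to 0.191 over all single omissions).

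Among pocket proteins and E2F factors, Rbl1 (p107) and E2f2 fell. Rbl1 was at 31.5, 32.8 and 33.2 TPM in fresh and 20.7, 19.0 and 22.2 TPM in cultured libraries, a fall of 0.37 ± 0.062 on the log2 scale (adjusted p = 2.3e-05) with no overlap. E2f2 had 373, 279 and 251 expected counts in fresh and 161, 182 and 172 in cultured libraries, and fell by 0.61 ± 0.12 (adjusted p = 0.000193). Its TPM of 6.19, 6.43 and 6.09 in fresh and 5.03, 6.6 and 3.68 in cultured libraries overlap, and the call was lost with the effective length as an offset (-0.06) and after the GC and length correction (-0.26). Rb1, the retinoblastoma protein, was at 25.7, 25.4 and 26.7 TPM in fresh and 26.7, 27.0 and 25.6 TPM in cultured libraries, which overlap. Its rise of 0.20 ± 0.071 (adjusted p = 0.0204) was not called without fresh replicate 1 or cultured replicate 2 (adjusted p up to 0.0727), nor with library size alone, with the effective length offset, on log2(TPM + 1) values or after the GC and length correction (0.08). Rbl2 (p130), at 50.4 ± 5.63 and 49.5 ± 5.49 TPM, had a difference of 0.00 ± 0.055 with an interval of -0.11 to 0.10. E2f1 and E2f3 stayed under 2 TPM and were not called.

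**Figure D2:**
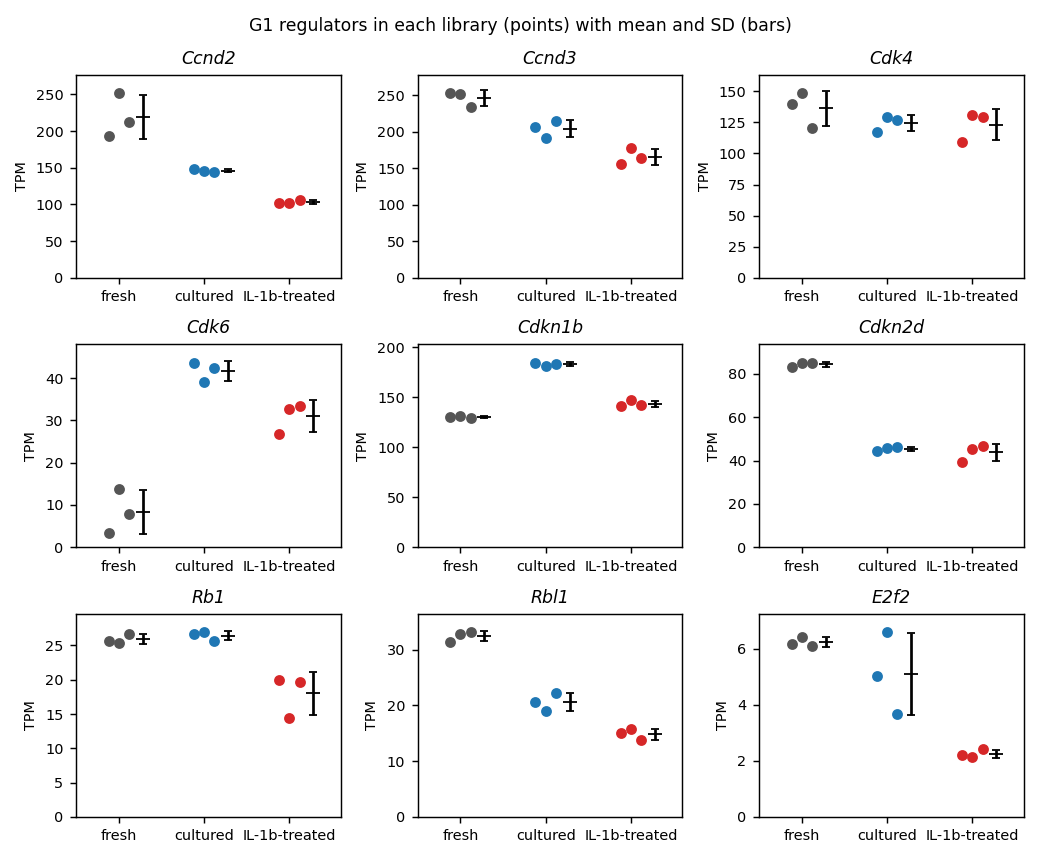
TPM of 9 G1 regulators in each library (points), with the mean and SD of each group as a bar, on linear axes from 0. Cdk6 and Cdkn1b lie higher in all cultured than in all fresh libraries, and Ccnd2, Ccnd3, Cdkn2d and Rbl1 lie lower.

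Of the 19 tested replication genes 3 rose and 5 fell, 42.1% against 58.2% of all tested genes. The 6 subunits of the MCM helicase, which assemble as 1 ring, went both ways. Pcna (chr2:132249162-132253314, minus strand) encodes the sliding clamp that holds DNA polymerase on its template. It was at 126, 131 and 136 TPM in fresh, 181, 173 and 182 in cultured and 233, 207 and 211 in IL-1b-treated libraries. The 3 groups did not overlap, and from fresh to cultured cells Pcna rose 1.65-fold (0.72 ± 0.046, adjusted p = 5.35e-12). A processed pseudogene, Pcna-ps2, held 12, 27 and 28 counts in the 3 groups against 5644, 8051 and 11745 for Pcna. Mcm7 was at 66.1, 69.7 and 73.9 TPM in fresh and 105, 92.0 and 91.5 in cultured libraries, and rose 1.65-fold (0.72 ± 0.053, adjusted p = 5.20e-11). Mcm6 had 669, 438 and 410 expected counts in fresh and 735, 729 and 629 in cultured libraries, a scaled rise of 0.68 ± 0.084 (adjusted p = 3.31e-07). Its TPM overlapped, at 22.4, 14.7 and 17.1 against 26.2, 23.4 and 18.4, and on log2(TPM + 1) values the difference was 0.32 (adjusted p = 0.149).

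The other MCM subunits fell, each with all cultured TPM values below the fresh ones. Mcm3 went from 31.1, 29.5 and 25.6 to 17.7, 15.1 and 21.5 TPM (-0.42 ± 0.10, adjusted p = 0.00122). Mcm5 went from 29.0, 25.4 and 31.3 to 18.7, 17.2 and 18.0 TPM (-0.36 ± 0.089, adjusted p = 0.00125). After the GC and length correction, Mcm3 kept its call at -0.26 and Mcm5 was not called at -0.19. Mcm2 went from 32.5, 40.6 and 33.0 to 25.9, 23.5 and 26.4 TPM (-0.23 ± 0.064, adjusted p = 0.0046), but this turned to 0.14, not called, after that correction, and was not called with the effective length offset. Mcm4 went from 34.6, 37.1 and 34.7 to 26.0, 26.6 and 26.7 TPM (-0.18 ± 0.061, adjusted p = 0.0148), a call lost without fresh replicate 2 or cultured replicate 1, with adjusted p up to 0.0836, and with the effective length offset. The 6 subunits together summed to 216 ± 0.80 TPM in fresh and 207 ± 11.6 in cultured cells, while the most abundant subunit exceeded the least abundant one 4.01-fold ± 0.94 in fresh and 5.70-fold ± 0.54 in cultured cells.

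The promoters of Mcm6, Mcm5, Mcm2 and Rbl1 are shown because these genes, textbook targets of E2F, moved in both directions on scaled counts and differ in their E2F letters. Of these directions only that of Rbl1 was called in every alternative. Mcm2 turned sign and Mcm5 lost its call after the GC and length correction, and Mcm6 was not called on log2(TPM + 1) values. The RefSeq promoter table (GRCm38.p6, 250 bases before to 50 after each start) held 39 of the 47 members. Each stretch below is the 160 bases before the start, 5′ to 3′ in the direction of the gene, with capitals for 4 spellings of the E2F site (TTTCCCGC, TTTGGCGC, TTTCGCGC or TTTGCCGC, on either strand). Positions count the start as base 0. Mcm6, which rose, lies at chr1:128359706-128359865 on the minus strand, with overlapping matches from -110 to -99 and another from -47 to -40. Mcm5, which fell, lies at chr8:75109349-75109508 on the plus strand, with overlapping matches from -153 to -142. Rbl1, which fell, lies at chr2:157204535-157204694 on the minus strand, with 1 match from -18 to -11. Mcm2, which fell, lies at chr6:88898781-88898940 on the minus strand and has none. Of the other MCM genes, Mcm7, which rose, held matches from -165 to -158 and from 16 to 23, and Mcm3, which fell, from 19 to 26 and from 38 to 45, all outside the stretch shown, and Mcm4 had no entry.
Mcm6: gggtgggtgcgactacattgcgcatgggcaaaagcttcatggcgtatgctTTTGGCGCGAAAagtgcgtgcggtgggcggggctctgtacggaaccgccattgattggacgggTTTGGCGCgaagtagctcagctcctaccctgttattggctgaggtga
Mcm5: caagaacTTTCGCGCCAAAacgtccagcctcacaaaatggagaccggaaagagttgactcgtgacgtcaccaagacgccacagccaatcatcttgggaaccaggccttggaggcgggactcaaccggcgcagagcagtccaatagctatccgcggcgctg
Rbl1: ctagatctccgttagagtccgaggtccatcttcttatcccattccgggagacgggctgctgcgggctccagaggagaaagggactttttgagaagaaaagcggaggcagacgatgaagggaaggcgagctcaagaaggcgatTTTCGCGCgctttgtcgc
Mcm2: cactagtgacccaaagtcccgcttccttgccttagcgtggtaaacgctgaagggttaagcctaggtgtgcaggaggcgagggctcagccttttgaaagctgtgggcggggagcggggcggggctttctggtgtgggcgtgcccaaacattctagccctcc

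Over the whole 300 bases, 14 of 39 members held an E2F spelling (35.9%), against 2.6% of 27025 genes and 2.26% of all 32851 promoters in the table. By role these were 9 of 18 replication genes, 4 of 13 G1 regulators and 1 of 8 mitosis genes. The spelling stood in 5 of 7 members that fell in culture, in 2 of 7 that rose and in 6 of 22 that were not called; in the 250 bases before the start alone it stood in 2 of 7, 2 of 7 and 5 of 22. In that shorter window it stood in 10 of 39 members (25.6%), against 2.16% of all genes. The CHR element of mitotic genes, spelled TTTGAA or TTCGAA on either strand and not overlapping with the E2F letters in spelling, stood in 6 of 8 mitosis genes (75.0%), 3 of 13 G1 regulators and 4 of 18 replication genes, against 21.7% of all genes and 19.2% of all promoters. The median GC of the promoters was 58.0% for members and 52.7% for all promoters, and its part in these shares was not tested. A match describes letters and not a bound site.

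The genes that license origins before S phase were mixed in level. Cdt1, which loads the MCM ring, was at 33.2, 30.4 and 28.9 TPM in fresh and 21.7, 19.2 and 20.8 TPM in cultured libraries, with no overlap. Its fall of 0.24 ± 0.096 (adjusted p = 0.0341) was lost without fresh replicate 1, 2 or 3 or cultured replicate 2 or 3, with adjusted p up to 0.139, and turned to 0.025 after the GC and length correction. Cdc6, Cdc45 and Gins1, parts of the loading and unwinding machinery, had 7 to 50 counts per library and were not called. Orc1, a subunit of the origin recognition complex, had 9 counts over the fresh, 28 over the cultured and 23 over the IL-1b-treated libraries. The depth-corrected ratio of cultured to fresh was 3.48 with a 95% interval of 1.60 to 8.39 that covers counting error only. Mcm10 had 8, 11 and 20 counts. Rrm1, Rrm2, Tyms and Tk1, which make DNA precursors, the ligase Lig1, the flap nuclease Fen1, Uhrf1 and Gins2 were not called, with log2 fold changes from -0.37 to 0.26.

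**Figure D3:**
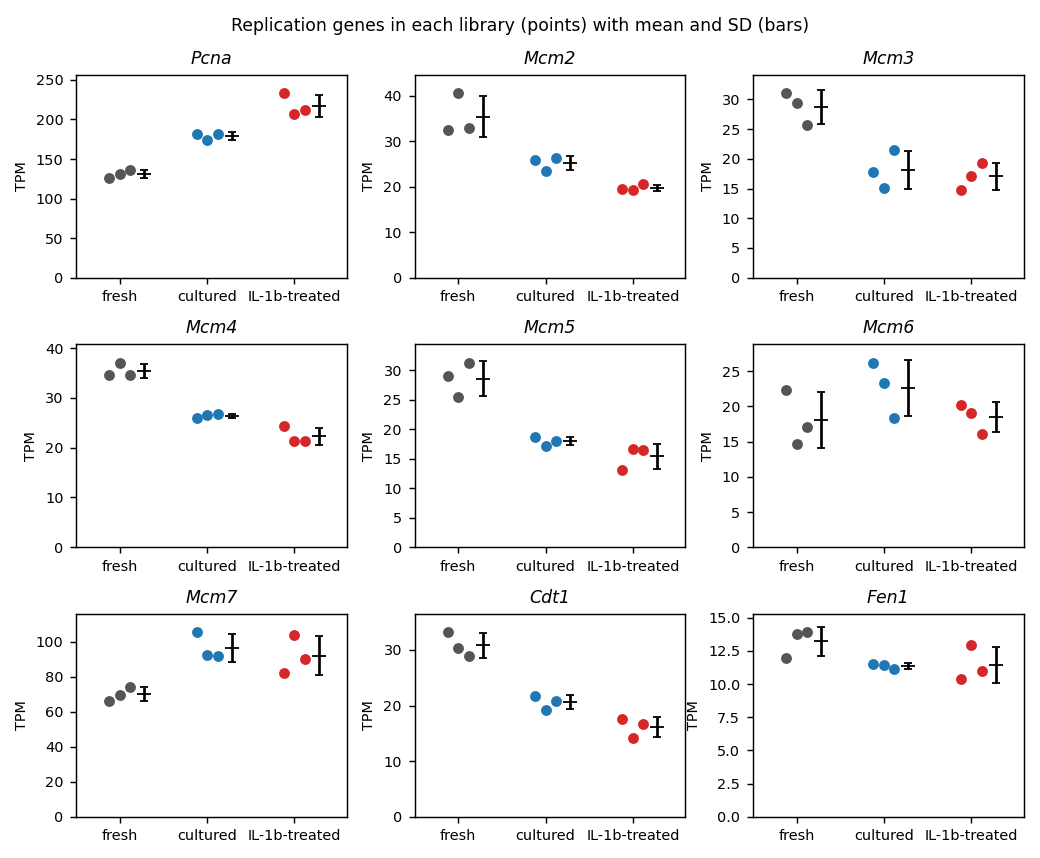
TPM of 9 replication genes in each library (points), with the mean and SD of each group as a bar, on linear axes from 0. Pcna rises at each step between groups, Mcm7 lies higher in both cultured groups than in fresh cells, and Mcm2, Mcm3, Mcm4, Mcm5 and Cdt1 lie lower.

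Of the 8 tested mitosis genes 1 was called after culture, 12.5% against 58.2% of all tested genes. Mki67, the proliferation marker Ki-67, was at 0.81, 1.09 and 1.23 TPM in fresh, 1.28, 0.92 and 0.91 in cultured and 0.71, 0.64 and 0.38 in IL-1b-treated libraries. Fresh and cultured libraries overlapped, and the difference of 0.03 ± 0.21 had an interval of -0.39 to 0.44, so a change of under about that size was not detectable. Plk1, a mitotic kinase, was that gene, with 40, 30 and 32 counts in fresh and 50, 66 and 52 in cultured libraries (0.90 ± 0.35, adjusted p = 0.0291). This call was lost without fresh replicate 1 or 2 or cultured replicate 2, with adjusted p up to 0.111, and with the effective length offset and on log2(TPM + 1) values. None of the 8 fell in edgeR, in DESeq2 or at an unadjusted p under 0.05. Ccna2, Ccnb1, Ccnb2, Cdk1 and Birc5 had 1 to 40 counts per library, and Ccnb2 has a transcribed pseudogene, Ccnb2-ps, with more counts than the gene itself (288 against 42 over the fresh libraries), so its value is uncertain.

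With IL-1b, Pcna had the largest called change. Against cultured cells 5 of the 43 tested members rose and 2 fell, 16.3% in all, where 28.9% of all tested genes were called, 15.6% higher and 13.3% lower. In TPM, 1 member lay above all cultured libraries (3.76% of all tested genes) and 17 below (45.0%), where 48.8% of all tested genes did not overlap. Pcna rose by at least 1.5-fold, as the 1 member called at that size, against 3.14% of all tested genes. The split of directions depended on the scaling: with library size alone 1 member was higher and 10 lower, on log2(TPM + 1) values 1 and 14, and Pcna was the higher one in both. The number higher was 3 without cultured replicate 1, cultured replicate 3 or IL-1b-treated replicate 3 and 2 without IL-1b-treated replicate 2, and the number lower was 4 without IL-1b-treated replicate 1.

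Of the 19 tested replication genes 3 rose and none fell, with 1 lower at an unadjusted p under 0.05 and 1 in DESeq2. The 3 are 15.8% of the 19, where 15.6% of all tested genes were called higher and 13.3% lower. Pcna rose 1.52-fold over the cultured level (0.60 ± 0.044, adjusted p = 5.37e-10), and by 0.42 after the GC and length correction, still called. Its 3 IL-1b-treated TPM values were above the cultured ones. Pcna was 38.4% ± 0.70 of the summed TPM of the replication genes in cultured and 46.4% ± 2.20 in IL-1b-treated cells, against 29.4% ± 0.82 in fresh cells. Mcm7 was at 81.9, 104 and 89.8 TPM in IL-1b-treated libraries, which overlap the cultured ones, and its scaled rise was 0.19 ± 0.051 (adjusted p = 0.00581), against 0.077, not called, with library size alone and -0.071 on log2(TPM + 1) values, and it was not called with the effective length offset. Fen1, which trims Okazaki fragments, was at 11.98, 13.7 and 13.9 TPM in fresh, 11.6, 11.5 and 11.1 in cultured and 10.4, 12.9 and 10.95 in IL-1b-treated libraries. Its scaled rise over cultured cells was 0.34 ± 0.11 (adjusted p = 0.0255) and was lost on dropping cultured library 1 or 3 or treated library 2, when the adjusted p reached 0.141, as well as with library size alone, the effective length offset and on log2(TPM + 1) values. Fen1 shares 78.8% of its exon bases with Gm10143 on the opposite strand, which had 41 counts over the cultured and 4 over the IL-1b-treated libraries against 806 and 973 for Fen1. The other 5 MCM subunits had scaled differences from -0.01 to 0.08 and were not called; in IL-1b-treated libraries Mcm2 was at 19.4, 19.2 and 20.5 TPM, Mcm3 at 14.7, 17.1 and 19.3, Mcm4 at 24.3, 21.4 and 21.3, Mcm5 at 13.0, 16.6 and 16.5 and Mcm6 at 20.3, 19.1 and 16.1. Cdt1 was at 17.6, 14.1 and 16.6 TPM (-0.15 ± 0.099, adjusted p = 0.293).

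Of the 16 G1 regulators 2 rose and 2 fell with IL-1b, none by 1.5-fold, which is 25.0% against 28.9% of all tested genes. Cdk6 fell by 0.18 ± 0.048 (adjusted p = 0.00686), a difference that was not called with the effective length offset (-0.12) and turned to 0.11, not called, after the GC and length correction. Rb1 was at 20.0, 14.4 and 19.7 TPM, all below the cultured values, and fell by 0.29 ± 0.072 (adjusted p = 0.00403) and by 0.28 after that correction; with the effective length offset it was not called (adjusted p = 0.159). Cdk4 was at 109, 131 and 129 TPM, overlapping the cultured values. Its rise of 0.18 ± 0.062 (adjusted p = 0.0308) was lost on dropping cultured library 2 or 3 or treated library 2 or 3, when the adjusted p reached 0.156. It was not called with library size alone, with the effective length offset or after the GC and length correction (0.12), and was -0.017 on log2(TPM + 1) values. Cdkn2d was at 39.2, 45.5 and 46.7 TPM, also overlapping. Its rise of 0.27 ± 0.078 (adjusted p = 0.0118) was lost on dropping cultured library 1 or treated library 2 or 3, when the adjusted p reached 0.0689, was not called with library size alone or the effective length offset, and was -0.058 on log2(TPM + 1) values.

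The D-type cyclins and p27 were not called between cultured and IL-1b-treated cells. Ccnd2 was at 102, 102 and 106 TPM (-0.06 ± 0.029, adjusted p = 0.166), Ccnd3 at 156, 177 and 164 TPM (-0.03 ± 0.037, adjusted p = 0.614) and Cdkn1b at 142, 147 and 142 TPM (-0.06 ± 0.031, adjusted p = 0.177). In TPM all 3 genes lay below the cultured libraries, and all 3 were called lower with library size alone and on log2(TPM + 1) values; Ccnd2 was called higher, at 0.13, after the GC and length correction. Rbl1, at 15.1, 15.7 and 13.8 TPM, had a scaled difference of -0.16 ± 0.064 (adjusted p = 0.06 in edgeR, 0.0226 in DESeq2). Rbl2 (adjusted p = 0.0864 and 0.0312) and the replication gene Gins2 (0.0795 and 0.0487) were likewise called lower by DESeq2 and not by edgeR. E2f2, at 2.20, 2.14 and 2.41 TPM, had a scaled difference of -0.17 ± 0.13 (adjusted p = 0.351), which was -0.86 and called with the effective length offset. Cyclin D2 made up 46.9% ± 3.43 of the summed TPM of Ccnd2 and Ccnd3 in fresh, 41.7% ± 1.43 in cultured and 38.5% ± 1.60 in IL-1b-treated cells. Mitosis genes gave no call in 8 tested, by edgeR or by DESeq2, where edgeR called 28.9% of all tested genes. Mki67 was the 1 gene at an unadjusted p under 0.05 in edgeR (-0.49 ± 0.22, adjusted p = 0.098). Bub1, a spindle checkpoint kinase, had 2, 0 and 2 counts in cultured libraries and 1, 15 and 1 in IL-1b-treated ones, so that IL-1b-treated replicate 2 held nearly all of them. The mitotic kinase gene Aurkb had 13 counts over the fresh, 26 over the cultured and 9 over the IL-1b-treated libraries.

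**Figure D4:**
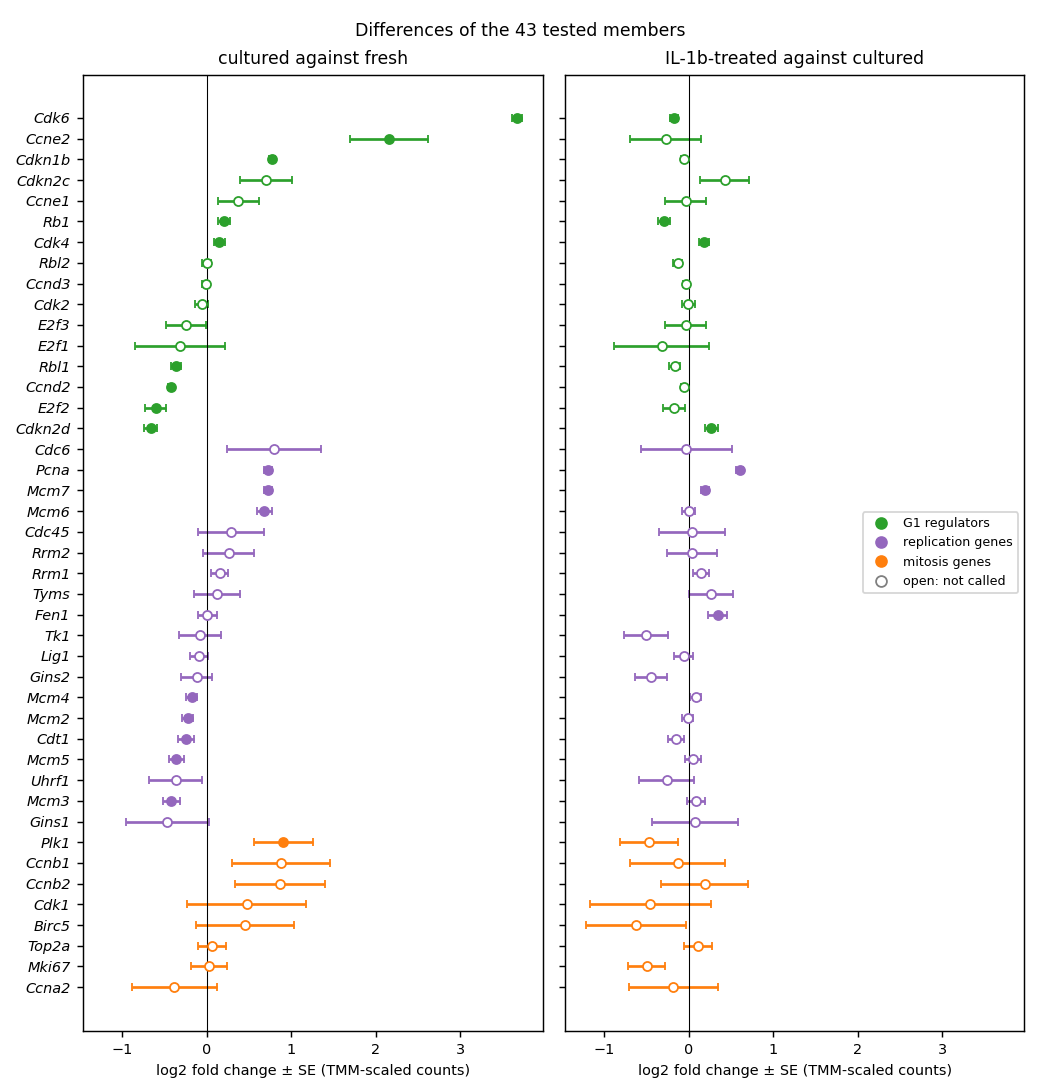
Log2 fold change of TMM-scaled counts with its SE for the 43 tested members, coloured by role, in cultured against fresh cells (left) and IL-1b-treated against cultured cells (right); filled points are called at an adjusted p under 0.05. The left panel holds 18 filled points led by Cdk6, the right panel 7 led by Pcna.

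Each pair of comparisons shares 1 group of libraries, so their differences for a gene are not independent. From fresh to IL-1b-treated cells 10 members rose and 10 fell, where 65.5% of all tested genes were called, 32.9% higher and 32.6% lower, and 38.5% at 1.5-fold or more. The split was 8 higher and 18 lower with library size alone, and 4 higher and 18 lower on log2(TPM + 1) values. In TPM 4 members lay above and 18 below the fresh libraries, against 12.6% and 56.4% of all tested genes, or 69.0% with no overlap. Pcna was 2.51-fold higher (1.33 ± 0.046, adjusted p = 3.78e-17), Mcm7 1.89-fold, Cdk6 11.2-fold and Cdkn1b 1.64-fold higher. Cdkn2c, not called by edgeR in either step, was 2.18-fold higher over both (1.13 ± 0.30, adjusted p = 0.00222), with expected counts of 46, 60 and 26 in fresh and 63, 73 and 103 in IL-1b-treated libraries. E2f2 (-0.78 ± 0.13), Rbl1 (-0.53 ± 0.063), Ccnd2 (-0.49 ± 0.029), Cdkn2d (-0.40 ± 0.075) and Cdt1 (-0.39 ± 0.097) were lower. Ccne2, Cdk4, Mcm6, Fen1 and Rrm1 were also called higher and Rbl2, Mcm2, Mcm3 and Mcm5 lower. The call of Rbl2 was lost on leaving out any of fresh replicates 1 and 2, all 3 cultured replicates or IL-1b-treated replicates 1 and 2, with adjusted p up to 0.311. Those of Fen1 (fresh replicate 1, IL-1b-treated replicate 2, up to 0.0679) and Rrm1 (fresh replicate 1, IL-1b-treated replicate 3, up to 0.108) were lost in the same way, and both with library size alone and on log2(TPM + 1) values. On that TPM scale Cdkn2c, Ccne2 and Mcm6 were not called either, and Cdk4 stood at -0.15. After the GC and length correction 8 of these calls ended, with E2f2 at -0.23, Ccnd2 at -0.04, Cdt1 at -0.04, Mcm3 at -0.10, Mcm5 at -0.05, Rbl2 at -0.05, Gins2 at -0.12 and Rrm1 at 0.21, and Mcm2 went from -0.23, called lower, to 0.31, called higher. Gins2, a subunit of the replicative helicase, was also lower (-0.57 ± 0.18, adjusted p = 0.00946), a call that ended when fresh replicate 1 was left out, and likewise IL-1b-treated replicate 3 (0.0702 at most). It shares 67.3% of its exon bases with Gse1 on the opposite strand, whose counts went from 7442 over the fresh to 3173 over the IL-1b-treated libraries.

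A wider set of 137 genes of the same pathways, of which 135 were found and 121 tested, gave 41 higher and 19 lower in cultured against fresh cells and 23 higher and 6 lower in IL-1b-treated against cultured cells. These are 49.6% and 24.0% of the 121, against 58.2% and 28.9% of all tested genes. Of 20 tested G1 and restriction point genes 7 rose and 4 fell in culture (55.0%). Ccng2, cyclin G2 of resting cells, rose from 47.4 ± 5.22 to 64.5 ± 0.99 TPM (0.76 ± 0.047), and E2f4, the E2F that works with pocket proteins as a repressor, fell from 83.2 ± 2.62 to 46.6 ± 2.51 TPM (-0.59 ± 0.057). Tfdp1, the dimer partner of E2F factors, fell by 0.61 ± 0.087. Of 9 genes of the DREAM and MYB-MuvB complexes, which silence cell cycle genes at rest and switch on mitotic genes later, 5 rose and 1 fell (66.7%). Lin54, the DNA-binding subunit, rose by 0.64 ± 0.092 and Rbbp4 by 0.25 ± 0.037, and Dyrk1a, the kinase that assembles DREAM, fell by 0.49 ± 0.051 on the log2 scale. None of the 9 was called with IL-1b in edgeR or DESeq2, with 1 lower at an unadjusted p under 0.05.

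Of 51 other replication genes 20 rose and 11 fell in culture, 60.8% against the 58.2% of all tested genes. With the GC and length correction these were 13 and 10, where 3725 and 3388 of the 13043 tested genes were called. Samhd1, which degrades DNA precursors, rose from 363 ± 4.23 to 585 ± 23.9 TPM (0.93 ± 0.026), Slbp, which binds histone messenger RNA, rose by 0.86 ± 0.066, and Dnmt1, the maintenance DNA methyltransferase, fell by 0.61 ± 0.049. With IL-1b 16 of the 51 rose and 3 fell, 37.3% in all, against the 28.9% of all tested genes. The GC and length correction left 7 higher and 1 lower, where 1657 and 767 of the 13043 tested genes were called. Slbp rose again by 0.48 ± 0.062 and the origin recognition subunit Orc3 by 0.38 ± 0.064 (-0.028 on log2(TPM + 1) values), while Samhd1 fell by 0.17 ± 0.026. On log2(TPM + 1) values none of the 121 wider genes was called higher with IL-1b and 25 were called lower. Of 41 other mitosis genes 9 rose and 3 fell in culture, 29.3% against the same 58.2%. Cdc25b, a phosphatase that activates Cdk1, rose from 31.9 ± 2.22 to 77.2 ± 1.46 TPM (1.65 ± 0.059) and fell by 0.25 ± 0.055 with IL-1b; the spindle checkpoint gene Bub3 rose by 0.58 ± 0.046 in culture and by 0.27 ± 0.045 more with IL-1b (-0.023 on log2(TPM + 1) values), and the kinetochore gene Ndc80 rose by 1.26 ± 0.19 in culture. With IL-1b 4 of the 41 rose and 2 fell, 14.6% against 28.9%, and Smc4, a condensin subunit, rose by 0.20 ± 0.035 on scaled counts and stood at -0.18 on log2(TPM + 1) values. Of the 20 tested G1 and restriction point genes 3 rose and 1 fell with IL-1b, 20.0% against 28.9% of all tested genes. Ccng1, cyclin G1, rose by 0.42 ± 0.043. Mnat1, a subunit of the Cdk-activating kinase, rose by 0.40 ± 0.12 (0.24, not called, after the GC and length correction). E2f4 was the 1 that fell.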

How the data were processed

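Total RNA of the 9 TN cell samples was made into libraries with a directional kit, per the labels' protocols, and handled with STAR and RSEM on mm10, per the submitters' processing notes; their versions and the strand setting were not given in the sources used here. The deposited tables hold expected counts (raw, with ambiguous reads split by RSEM), TPM values (corrected for length and library size) and FPKM values, per the file headers; FPKM was not used here. Genes were matched by identifier through GENCODE M21 (GRCm38). Expected counts were rounded. One edgeR 4.0.16 fit (R 4.3.3, TMM, filterByExpr, group as the only term) covered all 9 libraries, with Benjamini-Hochberg adjustment; intervals are 95% and unadjusted. The code was tested on simulated data. A floor of 3 counts equals 0.13 to 0.222 CPM. The members, gene lists and alternatives were chosen with earlier results of these data known. Values in every library are given for members called in either step between groups whose mean reached 5 TPM, up to 10 per role by smallest adjusted p, and for Mki67, Pcna, Cdkn1b, Ccnd2 and Ccnd3; up to 3 called genes with at least 1 TPM were named per wider list, and other genes named were chosen after their values were seen. Alternatives were other scalings and filters, DESeq2 1.42.0, limma 3.58.1 (voom or log2 TPM), an effective length offset, only the groups compared, a replicate block, removal of the GC and length trend (mgcv 1.9.3), no 100 most counted genes, and each library left out.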

Additional observations from a re-analysis of the deposited data

How the results depend on the processing

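Most values kept direction and call. Counts of called members are given as higher and lower. For cultured against fresh cells (9 and 9) the higher count was 5 on log2(TPM + 1) and on log2(TPM + 0.1) values, and the lower count 5 with the GC and length trend removed; leaving out 1 library gave 6 to 10 higher and 7 to 9 lower. For IL-1b-treated against cultured cells (5 and 2) they were 1 and 10 with library size alone, 1 and 14 on both TPM scales and 1 and 1 with the effective length offset, and the lower count was 5 in DESeq2 and 1 with the trend removed; leaving out 1 library gave 2 to 5 and 2 to 4. For IL-1b-treated against fresh cells (10 and 10) the lower count was 18 with library size alone and 4 with the trend removed, and the TPM scales gave 4 higher with 18 lower at + 1 and 17 lower at + 0.1; leaving out 1 library gave 8 to 11 and 9 to 13.

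For the wider genes, cultured against fresh (41 and 19) had 22 higher on both TPM scales and 12 lower with the effective length offset (leave-one-out 32 to 42 and 16 to 19). IL-1b-treated against cultured (23 and 6) had 11 and 15 with library size alone, 0 and 25 on both TPM scales, 11 and 3 with the offset and 13 and 3 with the trend removed, and 10 lower in DESeq2 (leave-one-out 17 to 22 and 5 to 8). IL-1b-treated against fresh (47 and 17) had 14 and 34 at + 1, 15 and 34 at + 0.1, and 11 lower with the offset (leave-one-out 41 to 46 and 16 to 19).

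Signs turned in these cases, with the + 1 and + 0.1 TPM values in order. For cultured against fresh, Cdk4 was -0.13 and -0.13. For IL-1b-treated against cultured, Cdk4 was -0.017 and -0.018, Mcm4 -0.24 and -0.25, Mcm7 -0.071 and -0.072, Cdkn2d -0.058 and -0.059, Orc3 -0.028 and -0.029, Bub3 -0.023 and -0.023 and Smc4 -0.18 and -0.18. For IL-1b-treated against fresh, Cdk4 was -0.15 and -0.15, Fen1 -0.20 and -0.21, Rrm1 -0.35 and -0.37, Ccng1 -0.021 and -0.022 and Rbbp4 -0.054 and -0.055, and Rbl2 was 0.10 with the offset. With the trend removed, Mcm2 was 0.14, Cdt1 0.025 and Ccnd3 0.16 against fresh in culture, Ccnd2 0.13 and Cdk6 0.11 with IL-1b against cultured, and Mcm2 0.31 and Ccnd3 0.15 with IL-1b against fresh. The TPM scales carry the shift of all genes given above, and otherwise the cause was not tested.

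Replicate numbers are shared between groups, but same-numbered libraries correlated at -0.017 to 0.026 in their deviations and are not taken as paired; with the replicate block the members called were 9 and 9, 5 and 3, and 10 and 10 in the 3 comparisons. The SEs of the 8 tested mitosis genes ran from 0.17 to 0.70 (log2) for cultured against fresh. A 2-fold fall of Ccna2 and 2-fold rises of Ccnb1, Ccnb2, Cdk1 and Birc5 lie within their intervals and were not detectable at this depth. The intervals were -1.38 to 0.61 for Ccna2, -0.26 to 2.02 for Ccnb1 and -0.18 to 1.91 for Ccnb2.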
